A study of Mus musculus with 2 samples.

Results

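Chondrocytes, the cells that build and maintain cartilage, were examined among the resident cells of mouse bone after vehicle (Veh) or doxorubicin (Doxo), an anthracycline that damages DNA. The cells were chosen by their measured values. For each cell, the mean deposited value of 6 sets of 3 genes was taken, and a cell was kept where the chondrocyte set (Acan, Col9a1 and Matn3) had the strictly highest mean and at least 2 of its 3 genes were found. This rule kept 578 of 4976 cells, 306 of 2488 in the Veh library (12.3%, exact binomial 95% interval 11.0 to 13.7%) and 272 of 2488 in the Doxo library (10.9%, 9.73 to 12.2%). They are called chondrocyte-like below.

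Both groups were 12-week-old female mice whose femurs and tibias were digested with collagenase, depleted of CD45+, CD71+ and Ter119+ cells (and, per the labels, CD31+ cells) and profiled with droplet-based 3′ RNA libraries. The Doxo mice had received 10 mg/kg and were harvested at 96 h, like the Veh mice. The strain and the number of mice behind each library are not given in the sources used here, and no transgene or deletion is named for either group. Since each condition is 1 library and cells of a library are no replicates, the conditions could not be tested against each other. The intervals below (95%) reflect counting error alone. Digestion and depletion also set which cells reach a library, so the 2 shares above are not read as a change in cell number.

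Cartilage owes its stiffness to a matrix that chondrocytes secrete: fibrils of type II collagen with types IX and XI, and aggrecan, a proteoglycan whose sulfated chains hold water. In the growth plate of long bones, resting chondrocytes give rise to columns of dividing cells, which then enlarge, switch on Ihh and later Col10a1, and mineralise their matrix. Sox9 is the transcription factor that keeps the matrix genes on, while PTHrP (Pthlh) and Indian hedgehog (Ihh) act in a loop that times enlargement. Chondrocytes at the joint surface instead secrete lubricin (Prg4). Chondrocytes also release RANKL (Tnfsf11) and its decoy osteoprotegerin (Tnfrsf11b), which act on bone-resorbing osteoclasts.

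Unique molecular identifiers (UMIs) tag single RNA molecules. Expression is given as CPM, the UMIs of a gene summed over a group of cells, divided by all UMIs of that group and scaled to 1000000. In the chondrocyte-like cells, 5540994 UMIs were counted for Veh and 3753983 for Doxo, 22.3% and 18.1% of their libraries. Their median depth was 17998 UMIs per cell in Veh and 12820 in Doxo, against 8066 and 6908 in all other cells. Mitochondrial RNA made up a median of 3.09% of their UMIs in Veh and 3.51% in Doxo. The libraries shared 4 cell barcodes, and none was in a chondrocyte-like cell.

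The markers that the rule did not read were also highest in these cells. Col2a1 (chr15:97975602-98004695 on GRCm38), the gene of type II collagen, was at 22286 CPM in Veh chondrocyte-like cells and 438 in all other Veh cells, and at 13024 and 612 CPM in Doxo. Sox9 was at 1715 against 344 CPM in Veh and 2137 against 571 CPM in Doxo. Cnmd, which encodes the vessel-repelling cartilage protein chondromodulin, was at 3404 against 29.8 CPM and 2755 against 41.8 CPM. The 3 genes of the rule, which chose the cells, were at 2191 (Acan), 2270 (Col9a1) and 605 (Matn3) CPM in Veh and at 1782, 1353 and 489 CPM in Doxo. All 6 markers were higher in chondrocyte-like cells than in the rest of either library.

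**Figure D1:**
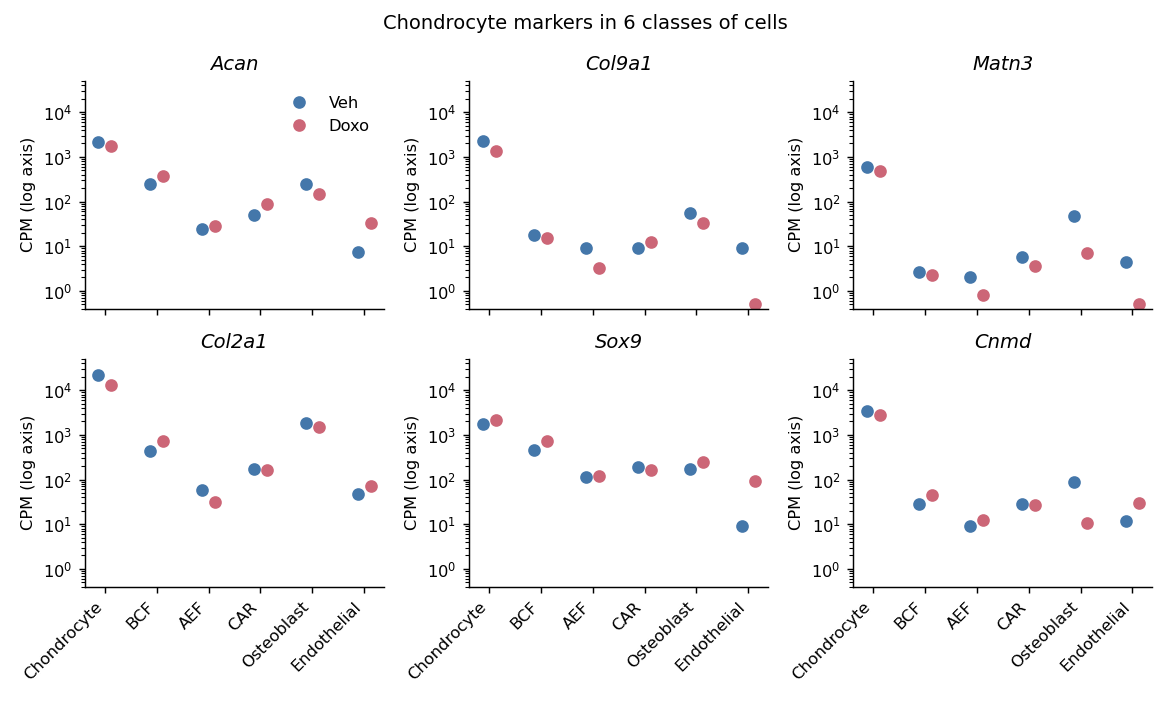
Level of 6 chondrocyte markers (CPM, log axis; values under 0.5 drawn at 0.5) in the 6 classes given by the rule, in the Veh (blue) and Doxo (red) library, 1 point per class and library. The chondrocyte-like cells are highest for each marker in both libraries, and Acan, Col9a1 and Matn3 chose them. BCF and AEF are bone and cartilage and arteriolar and endosteal fibroblast-like cells, and CAR is Cxcl12-abundant reticular cells.

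Markers of other cell types differed widely in level. The 6 endothelial markers summed to 11.6 CPM in Veh and 10.9 CPM in Doxo, and the 6 immune markers to 36.8 and 34.6 CPM. Osteoblast markers, mostly Bglap (osteocalcin), summed to 4716 and 2083 CPM, against 12018 and 8808 CPM in other cells. At least 2 genes of another set were found in 110 Veh and 80 Doxo cells, most often of the bone and cartilage fibroblast set (89 and 67 cells), and no doublet caller was run. The 6 bone and cartilage fibroblast markers summed to 10920 CPM in Veh and 13261 CPM in Doxo, against 11270 and 10786 CPM in other cells, and most of this was Chad, a gene that is also on the cartilage matrix list (9723 and 11954 CPM). The 6 synovial lining markers, mostly Prg4, summed to 4245 and 14902 CPM, against 20828 and 23868 CPM. The 6 erythroid markers summed to 600 CPM in Veh, against 344 CPM in other cells, and to 3.73 against 2.70 CPM in Doxo. The haemoglobin genes differed between the libraries in all cells alike: Hbb-bs was at 307 CPM in Veh and 1.33 CPM in Doxo chondrocyte-like cells, a log2 ratio of -7.71, with -7.35 in all other cells. Of the 1702 Veh UMIs of Hbb-bs, 1163 lay in 1 cell.

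The margin of the rule was wide for most cells. The chondrocyte mean lay at least 2 deposited log2 units above the next set in 278 Veh and 249 Doxo cells, and under 0.5 units above it in 25 and 20 cells. The closest cell inside was 0.00313 units above the next set in Veh and 0.0177 in Doxo. Just outside, 49 Veh and 58 Doxo cells had at least 2 of the genes but a mean equal to the next set or up to 0.5 units below it, and 33 and 58 cells had the highest mean with only 1 of the genes.

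Compared with all other cells of the same library, 514 of 8972 genes (5.73%) were at least 2-fold higher in chondrocyte-like cells in both libraries. Only genes with at least 50 UMIs over both libraries in these cells were counted. Of the 12 cartilage collagen genes 8 were among them, of 26 proteoglycan and matrix genes 14, and of 39 growth plate signals and receptors 11. The first of these counts holds Col9a1 and the next Acan and Matn3, the genes that chose the cells. At least 2-fold lower in both libraries were 888 of the 8972 genes. Among them were 10 of the 39 growth plate genes, 2 of the 26 matrix genes and none of the collagens. Of the 14 joint surface genes none was 2-fold higher in both, and 8 were at least 2-fold lower. Among the 8 is Cilp, a gene of the fibroblast set of the rule, so its low level is a description. Fmod, of the same set, is among the 26 matrix genes. The genes that stood highest over other cells, taking the lower of both libraries, are read as a description, because the same cells chose them. After Col9a1 and Matn3 they held Prkg2 (534 CPM in Veh, 704 in Doxo), a cGMP-dependent kinase that growth plate chondrocytes need to enlarge. Panx3 (289 and 323 CPM), a channel of prehypertrophic chondrocytes, was among them too. They also held 4 near-identical Serpina1 genes, antitrypsins whose reads cannot be assigned with certainty to 1 copy: Serpina1a was at 2182 and 2653 CPM, Serpina1d at 1770 and 1804 CPM, Serpina1b at 669 and 943 CPM and Serpina1c at 147 and 302 CPM. Others were Col9a2 (3346 CPM in Veh and 2438 CPM in Doxo), Matn1 (34.1 and 27.2 CPM) and Ppa1 (3551 and 3218 CPM), an inorganic pyrophosphatase.

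Chondrocyte-like cells were not uniform, and the same subsets appeared in both libraries. The cells were grouped by single zone genes at cutoffs set after their values were seen, so these groups are ranges and not types. Panx3, with at least 3 UMIs, was found in 130 Veh and 98 Doxo cells, and Ihh in 32 and 35 cells. Of the Ihh cells, 28 in Veh and 29 in Doxo were also Panx3 cells. Both groups were deeper than the remaining chondrocyte-like cells. The Panx3 cells had a median of 22505.5 UMIs in Veh and 18157 in Doxo, against 14641 and 10633. The Ihh cells had a median of 22778.5 and 19047 UMIs, against 17451.5 and 12197. How far depth sets this overlap was not tested. In cells with at least 3 Ihh UMIs, Pth1r, the receptor for PTHrP, was at 1720 CPM in Veh and 1594 CPM in Doxo, against 756 and 811 CPM in the others. Mef2c, a transcription factor for chondrocyte enlargement, was at 870 and 1393 CPM there, against 278 and 393 CPM. Panx3 was at 626 and 692 CPM, against 239 and 243 CPM, and none of these cells was rich in Prg4.

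Col10a1, the collagen of hypertrophic cartilage, marked 19 Veh and 9 Doxo cells with at least 3 UMIs, which held 99.6% and 97.0% of its UMIs. Those cells were high in Spp1, osteopontin (18120 CPM in Veh and 13331 CPM in Doxo, against 331 and 429 CPM). Mmp13, a collagenase, was found in 31.6% and 33.3% of them, against 5.57% and 4.56% of the others. Of its UMIs in the Col10a1 cells, 1 cell held 544 of 684 in Veh and 195 of 199 in Doxo. In endothelial-like cells, which should lack these genes, none of 96 Veh and none of 59 Doxo cells reached 3 UMIs of Col10a1, Ihh or Panx3, which allows shares of up to 3.13% and 5.08%. Col10a1 was not limited to chondrocyte-like cells: 18 Veh (2.19%) and 20 Doxo (2.29%) bone and cartilage fibroblast-like cells also had at least 3 UMIs, and in all other cells together it was at 75.7 and 136 CPM. The median depth of the endothelial-like cells was lower, at 6474 and 4678 UMIs. With each chondrocyte-like cell thinned to 5000 UMIs, which left out 20 Veh and 18 Doxo cells, a Col10a1 UMI was found in 7.34% and 5.51% of cells and an Ihh UMI in 11.2% and 15.7%, beside 8.82% and 6.25%, and 17.6% and 22.4%, without thinning.

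A further subset was rich in Prg4. At least 10000 CPM of Prg4 was found in 24 Veh cells (7.84%) and 45 Doxo cells (16.5%), which held 93.4% and 98.1% of its UMIs. In these cells Col2a1 was at 3470 CPM in Veh and 3595 CPM in Doxo, against 23335 and 14534 CPM in the others. Clu was at 7982 and 10443 CPM, against 1122 and 907 CPM, and Cytl1, a cytokine-like protein of cartilage, was at 44964 and 39288 CPM, against 6312 and 9265 CPM. Cilp, a cartilage matrix protein and a gene of the fibroblast set, was at 3976 and 3711 CPM, against 111 and 124 CPM. Panx3 was found with at least 3 UMIs in none of the Veh and 1 of the Doxo Prg4-rich cells. These cells were shallower, with a median of 11477 UMIs in Veh and 9398 in Doxo, against 18341.5 and 13458 in the others. By CPM, Panx3 was at 0 and 17.4 in them, against 306 and 372. The same Prg4 cutoff was met by 29.3% of Veh and 35.1% of Doxo bone and cartilage fibroblast-like cells. Whether Prg4-rich chondrocyte-like cells are joint surface cartilage or cells that share a droplet with a fibroblast was not tested.

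Ibsp, bone sialoprotein, exceeded 1000 CPM in 100 Veh and 72 Doxo cells, and it was also at that level in 77.9% and 83.3% of osteoblast-like cells, 67.6% and 34.3% of CAR-like cells and 22.5% and 21.9% of bone and cartilage fibroblast-like cells. In the Ibsp-rich chondrocyte-like cells Alpl, the phosphatase of mineralising matrix, was at 1095 and 926 CPM, against 222 and 215 CPM. Mgp, an inhibitor of mineralisation, was at 17947 and 13694 CPM, against 50873 and 38080 CPM. Across the thinned cells (286 Veh and 254 Doxo), which share a library and a depth, Ibsp and Mgp had a Spearman correlation of -0.48 in Veh and -0.51 in Doxo. Col2a1 correlated with Col9a3 at 0.84 and 0.80 and with Clu at -0.55 and -0.60. Panx3 correlated with Prkg2 at 0.55 and 0.67. Dividing cells were few: 4 Veh and 2 Doxo cells had at least 3 of 6 division markers, among them Mki67 and Top2a.

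**Figure D2:**
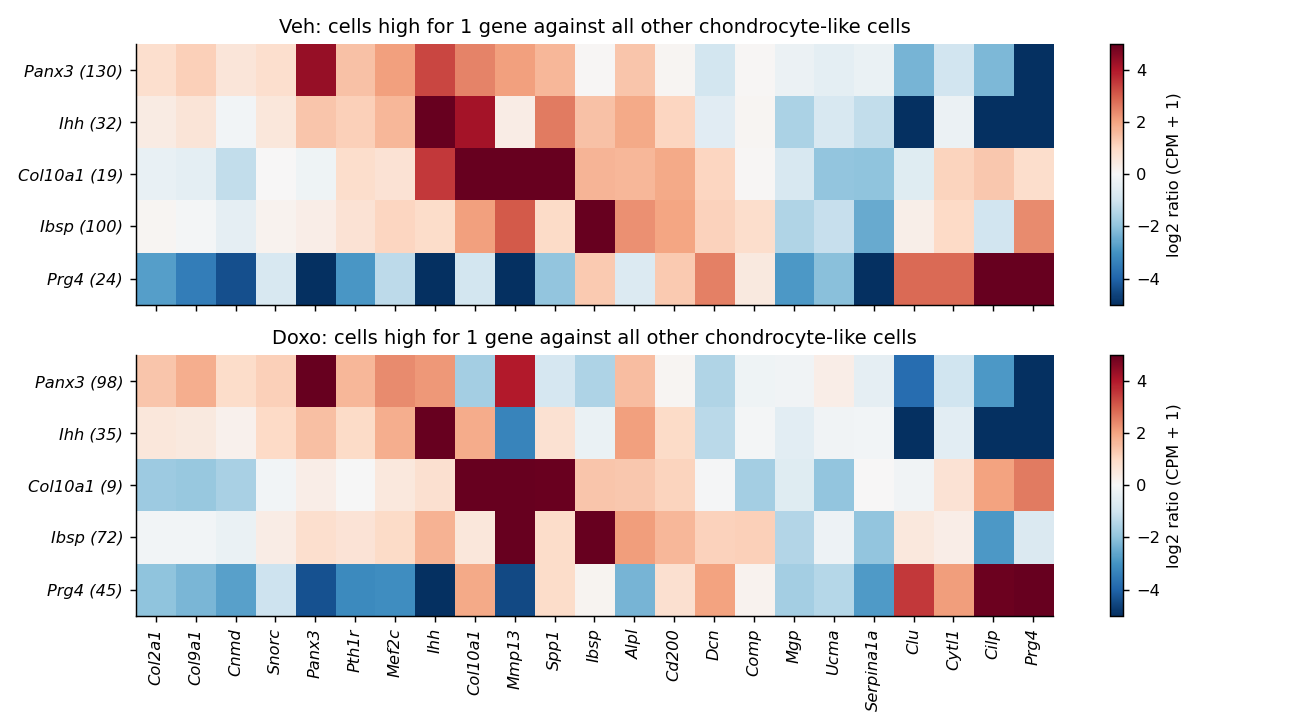
Log2 ratio of CPM plus 1 (colour, capped at 5) for 23 genes in chondrocyte-like cells high for Panx3, Ihh, Col10a1, Ibsp or Prg4, against all other chondrocyte-like cells of the same library, with the number of cells in brackets. In both libraries Prg4-rich cells are low in Col2a1, Panx3 and Ihh and high in Clu, Cytl1 and Cilp, while Ihh cells are high in Panx3 and Mef2c. The gene that chose each row is high in it by construction.

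Between the libraries, the median gene hardly differed. The comparison asks which genes of chondrocyte-like cells differ between a Doxo and a Veh library. Over the 8972 genes the median log2 ratio of Doxo to Veh was 0.02, 196 genes (2.18%) were higher in Doxo by 2-fold or more, 278 (3.1%) were lower by as much, and 4687 (52.2%) were higher by any amount. A gene is said below to be past 2-fold where its log2 ratio was at least 1 or at most -1. Of the lists of genes, the secreted inflammatory and bone resorption factors had the lowest median, -1.05, followed by the cartilage collagens, -0.59, and the matrix degrading enzymes and inhibitors, -0.37. The highest were the immediate early and heat shock genes and the G2 and M phase genes, each 0.37.

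**Figure D3:**
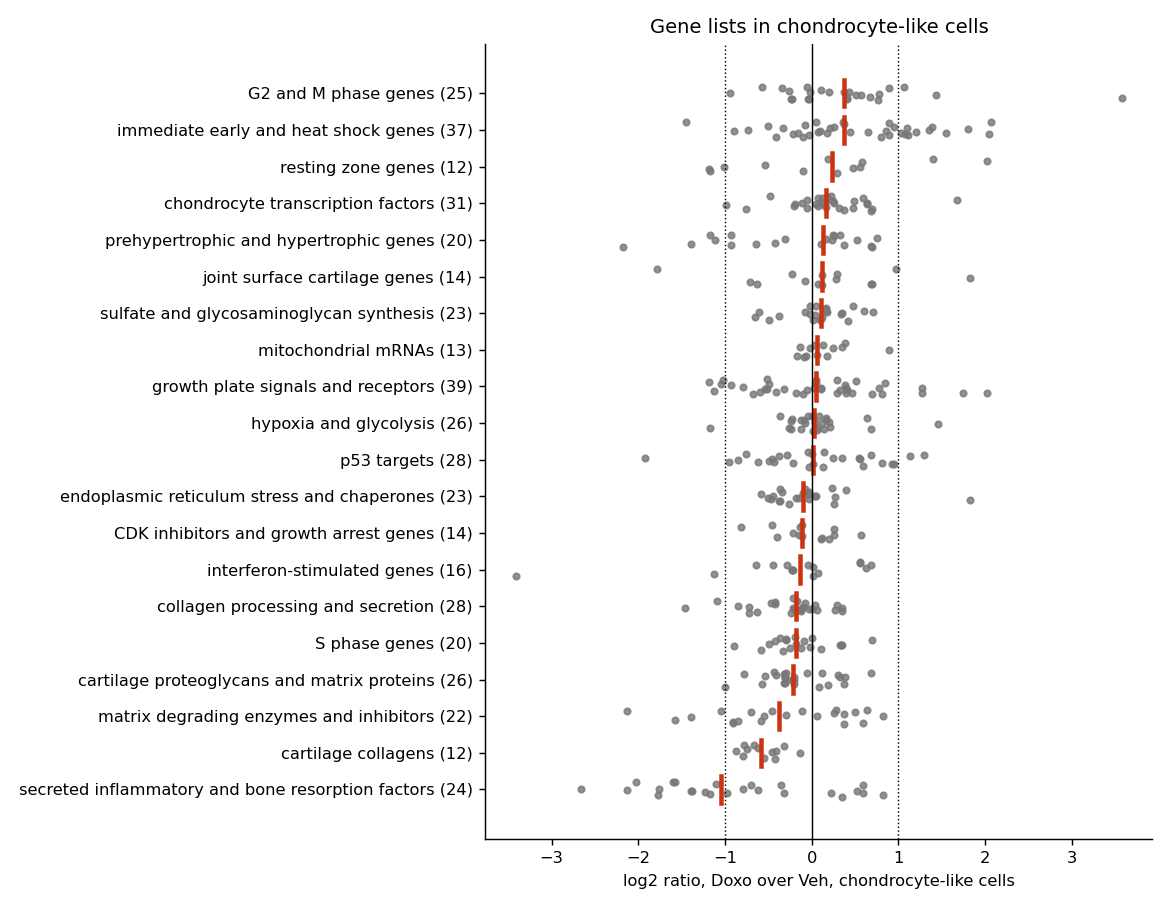
Log2 ratio of Doxo to Veh in chondrocyte-like cells for each gene with at least 50 UMIs (grey points, jittered vertically), by gene list with the number of genes shown, and the median of each list (red bar). Dotted lines mark 2-fold. The secreted inflammatory and bone resorption factors have a median of -1.05 and the cartilage collagens of -0.59.

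The 12 genes of the cartilage collagen list were lower in Doxo by summed UMIs, though not all were by mean deposited values. All 12 genes of the list had a ratio below 0, from -0.87 (Col12a1) to -0.13 (Col27a1), and none was past 2-fold. Col2a1 was counted 123484 times in Veh and 48891 times in Doxo, for a ratio of -0.77 (-0.79 to -0.76). Col9a1, at -0.75 (-0.79 to -0.70), is a gene of the rule that chose the cells, so its ratio is a description. Col9a3 was at 3538 CPM in Veh and 2036 CPM in Doxo, a ratio of -0.80. The shift ran through the cells: the median cell had 15099 CPM of Col2a1 in Veh and 8687 in Doxo, and the 25th percentile was 6361 and 2484 CPM. Without the Prg4-rich cells, which hold little Col2a1 and were more of the Doxo cells, the ratio of Col2a1 was -0.68, and all 12 collagens were still lower. In all other cells the ratio of Col2a1 was 0.48, and the median of the list was -0.17. By class, the median was 0.13 in BCF-like cells (4 of 12 genes lower), -0.21 in CAR-like cells (11 of 12), -0.30 in AEF-like cells (8 of 9) and -0.35 in osteoblast-like cells (9 of 11). In endothelial-like cells it was 0.73, with none of 4 genes lower. The difference between cell classes was not tested.

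Other matrix genes were less uniform. Of 26 proteoglycan and matrix genes 8 were higher and 18 lower, with a median of -0.22 and none past 2-fold. Acan, aggrecan, was at 2191 CPM in Veh and 1782 CPM in Doxo, a ratio of -0.30 (-0.34 to -0.26). Acan, Matn3 and Fmod of this list are genes of the rule, so their values are a description. Comp, which links collagen fibrils, went from 7821 to 4554 CPM (-0.78). Cytl1 went the other way, from 8355 to 13409 CPM (0.68). Of 28 genes of collagen processing and secretion 7 were higher and 21 lower, with a median of -0.18. Loxl4 (-1.46) and Loxl2 (-1.09), which cross-link collagen, were past 2-fold lower. Of 23 genes that make sulfate and glycosaminoglycan chains 16 were higher and none was past 2-fold, with a median of 0.11. Of 23 genes of endoplasmic reticulum stress 16 were lower, by a median of -0.10. Ddit3 stood apart at 1.82, but its deposited values did not invert to whole UMIs, so its level is uncertain.

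Transcription factors of chondrocytes were more often higher than lower. Of 31 genes 23 were higher in Doxo, against 52.2% of all genes, with a median of 0.17, and by mean deposited values only 13 of the 31 were. Sox9 was counted 9505 times in Veh and 8023 times in Doxo, for a ratio of 0.32 (0.27 to 0.36), which was -0.08 without the 5% of cells with most UMIs. Mef2c was at 355 and 572 CPM (0.69, 0.60 to 0.78). Barx1 was the only one past 2-fold higher, at 1.68 on 4.87 and 15.7 CPM. Runx1, which acts in skeletal precursors, was the lowest at -0.99, from 140 to 70.3 CPM, and at 0.24 in all other cells.

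Among growth plate signals and receptors 22 of 39 were higher, with a median of 0.05, and 4 were past 2-fold in each direction. Of all genes, 2.18% were past 2-fold higher and 3.1% lower. The hedgehog target and receptor Ptch1 was at 154 CPM in Veh and 374 CPM in Doxo, with a ratio of 1.28 (1.15 to 1.40). It was found in 66.0% of Veh and 73.9% of Doxo cells, and in 42.3% and 58.3% at 5000 UMIs. The ligand Ihh was at 86.4 and 140 CPM (0.69, 0.51 to 0.87), Gli1, another hedgehog target, at 12.6 and 19.7 CPM (0.64), and Hhip, a hedgehog-binding target, at 0.39. In all other cells Ptch1 had a ratio of 0.59. Pthlh, at 6.32 and 25.8 CPM, had a ratio of 2.02, but 1 Doxo cell held 40 of its 97 UMIs. Wnt10b (1.75) had 16 and 37 UMIs and Grem1 (1.28) had 37 and 61 UMIs. Of the Doxo UMIs of Grem1, 24 lay in 1 cell, and without the richest cell of each library its ratio was 0.77. Lower by 2-fold were Tgfb2 (-1.03, from 466 to 229 CPM), Sfrp5 (-1.19), Igf2 (-1.13) and Ltbp1 (-1.05).

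Zone genes moved apart. Of 20 prehypertrophic and hypertrophic genes 11 were higher and 9 lower, with a median of 0.14. Past 2-fold lower were 4, against 3.1% of all genes. Those were Col10a1 (364 and 80.4 CPM, ratio -2.17), Mmp13 (148 and 56.5 CPM, -1.39), Vegfa (127 and 56.2 CPM, -1.18), a signal that draws vessels into cartilage, and the zinc transporter Slc39a14 (-1.11). Col10a1 and Mmp13 sat in few cells: the 10 richest held 93.8% and 98.5% of their UMIs in Veh and 97.7% and 97.6% in Doxo, so the ratio is that of a handful of cells. Without the richest cell of each library Mmp13 was at -3.43 and Col10a1 at -2.17. Ibsp went from 6319 to 3317 CPM (-0.93). Prehypertrophic Pth1r (0.11) and Panx3 (0.16) barely differed, and Cd200 was at 0.75. Of 12 resting zone genes 7 were higher, with a median of 0.24. Pthlh and Gas1 (1.39) were past 2-fold higher, and without Prg4-rich cells Gas1 was at 0.36. Sfrp5, Efemp1 (-1.18) and Fxyd2 (908 and 452 CPM, -1.01) were past 2-fold lower.

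Of 14 joint surface genes 9 were higher in Doxo, with a median of 0.12. Prg4 (chr1:150449412-150466165) had 23279 UMIs (4201 CPM) in Veh and 55756 UMIs (14852 CPM) in Doxo, with a ratio of 1.82 (1.80 to 1.84). Both the number of Prg4-rich cells and their level were higher in Doxo, with 24 cells at 74287 CPM in Veh and 45 cells at 105512 CPM in Doxo. The median cell had 57.8 CPM in Veh and 99.5 CPM in Doxo. Without the Prg4-rich cells, which are left out by their Prg4 itself, the ratio was 0.19. Cilp, a gene of the rule, was at 0.97 and, like Prg4, was concentrated in those cells. The hyaluronan receptor Cd44 was past 2-fold lower, at 70.2 CPM in Veh and 20.2 CPM in Doxo (-1.79, -2.17 to -1.44), and at 0.13 in all other cells. It was found in 27.6% of Veh and 6.69% of Doxo cells thinned to 5000 UMIs.

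Secreted factors gave the largest shift of any list. Of 24 genes measured among 33, 18 were lower in Doxo, against 4285 of all 8972 genes. Past 2-fold lower were 12 of the 24, against 3.1% of all genes, and none was past 2-fold higher. Timp1 (chrX:20870166-20874735), an inhibitor of matrix metalloproteinases, had 4385 UMIs (791 CPM) in Veh and 677 UMIs (180 CPM) in Doxo, with a ratio of -2.13 (-2.25 to -2.02). In all other cells its ratio was 0.04. The median chondrocyte-like cell had 198 CPM of Timp1 in Veh and 45.7 CPM in Doxo, and 71 Veh but 9 Doxo cells exceeded 1000 CPM. Over the 15 alternatives that were tried its value stayed between -2.17 and -1.80. The difference of mean deposited values, which is not a ratio of CPM, is among them.

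The interleukin-6 family showed the same direction. Il11 was at 185 CPM in Veh and 45.3 CPM in Doxo (-2.03, -2.27 to -1.79), and its UMIs came from few cells, with at least 3 UMIs in 41 Veh and 16 Doxo cells. Il6 had 125 and 13 UMIs (-2.65, -3.65 to -1.88), found in 5.88% and 1.84% of cells, and Lif had 83 and 16 UMIs (-1.78). In all other cells the ratios were -0.42 (Il11), -0.74 (Il6) and -0.91 (Lif). Among the factors of bone resorption, Tnfsf11, RANKL, had 47 UMIs in Veh and 9 in Doxo (-1.76, -3.04 to -0.78), and Tnfrsf11b, its decoy, had 2736 and 2358 UMIs (0.35, 0.27 to 0.43). Inhba (0.59) and Mmp3 (0.82) were higher by less than 2-fold, and 154 of the 169 Doxo UMIs of Mmp3 lay in 1 cell.

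Part of the count moved with cells that carried genes of another class. Without the 110 Veh and 80 Doxo mixed cells, 5 of 20 measured secreted factors were past 2-fold lower, and with each cell thinned to 5000 UMIs, 6 of 17 were. Cxcl12, a gene of the rule for reticular cells, was at -1.38 with all cells and at 1.00 without the mixed cells. In Veh, the 10 richest cells held 81.4% of its UMIs. Timp1 was at -2.09, Il11 at -1.68, Il6 at -3.22 and Mmp13 at -1.50 without the mixed cells. Across the other classes the median of the list was -0.24 in BCF-like, -0.09 in AEF-like and -0.60 in CAR-like cells. In osteoblast-like cells it was 0.04 and in endothelial-like cells -0.42. Over all genes the medians were -0.07, -0.02, 0.05, -0.02 and 0.001, in that order. Past 2-fold lower were 5 of 30 genes of the list in BCF-like, 2 of 26 in AEF-like and 9 of 31 in CAR-like cells. In osteoblast-like cells 3 of 15 were, and in endothelial-like cells 4 of 14. These differences were not tested.

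Of 22 matrix degrading enzymes and inhibitors 13 were lower. Past 2-fold lower were 4, against 3.1% of all genes. Beside Timp1 and Mmp13, these were the aggrecanases Adamts4 (-1.58, 10.6 and 3.46 CPM) and Adamts5 (-1.04, 176 and 85.2 CPM). Timp3, another inhibitor, was at 1208 and 1709 CPM (0.50).

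**Figure D4:**
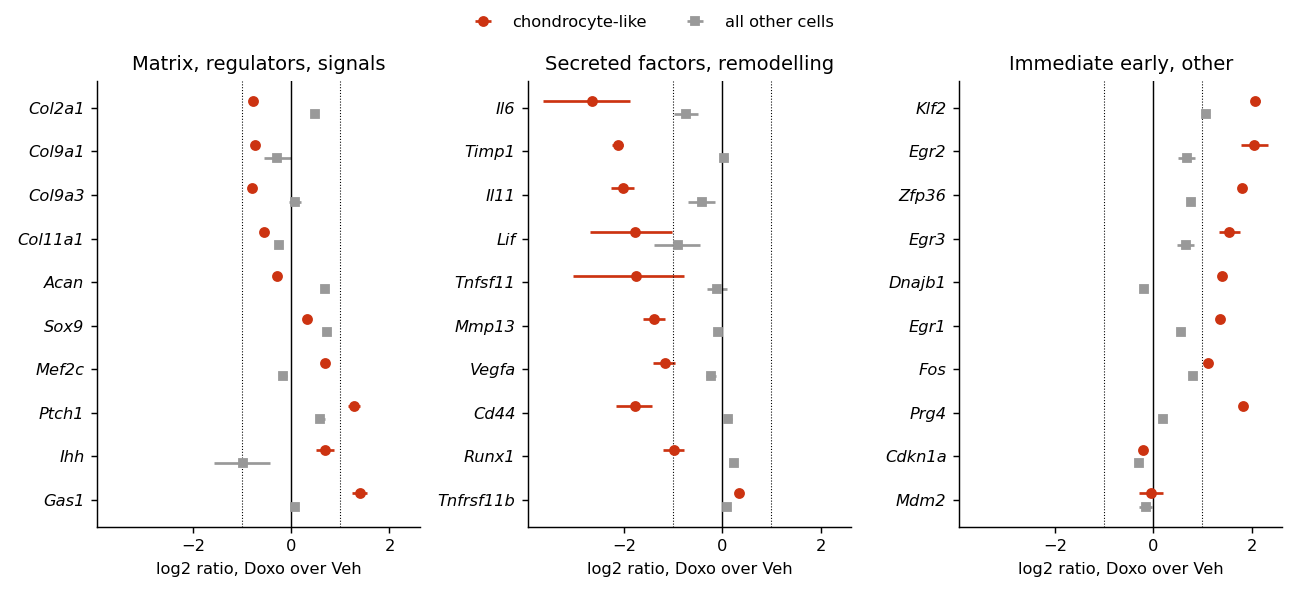
Log2 ratio of Doxo to Veh for 30 genes in chondrocyte-like cells (red circles) and in all other cells (grey squares), with exact conditional binomial 95% intervals that cover counting error only. Timp1 is at -2.13 in chondrocyte-like cells and 0.04 in other cells, and Klf2 is at 2.07 and 1.08. Acan and Col9a1 are genes of the rule that chose the cells.

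Immediate early genes, which are switched on within minutes of a stimulus, were higher in the Doxo library. The levels are those of cells after digestion and depletion, and their state in the bone was not measured. Of 37 immediate early and heat shock genes 26 were higher and 11 past 2-fold higher, and 1, Fosl1, was past 2-fold lower (-1.45). Of all genes, 52.2% were higher and 2.18% past 2-fold higher. Klf2, a transcription factor of the Krüppel family, had 1247 UMIs (225 CPM) in Veh and 3552 UMIs (946 CPM) in Doxo, with a ratio of 2.07 (1.98 to 2.17). The median cell had 75.4 CPM of Klf2 in Veh and 530 CPM in Doxo. Egr2 was at 27.1 and 112 CPM (2.05, 1.78 to 2.33), and Zfp36, which speeds the decay of inflammatory mRNAs, at 408 and 1420 CPM (1.80, 1.73 to 1.87). Egr3 (1.54), the chaperone Dnajb1 (1.39), Egr1 (1.35), Nr4a1 (1.21), Dusp1 (1.11), Fos (1.10), Atf3 (1.07) and Junb (1.04) were also past 2-fold. In the median cell Fos was at 1910 CPM in Veh and 6326 CPM in Doxo.

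The direction was shared with fibroblast-like cells. The median of the list was 0.37 in chondrocyte-like cells, 0.32 in BCF-like, 0.38 in AEF-like and -0.50 in CAR-like cells. In osteoblast-like cells it was -0.14 and in endothelial-like cells 0.19. In all other cells together Klf2 was at 1.08, Egr2 at 0.68, Zfp36 at 0.77 and Dnajb1 at -0.20. Without the 5% of cells with most UMIs, 7 of the 37 genes were past 2-fold higher.

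Of the promoters of these genes, 2 held a CArG box, the element bound by serum response factor. A search of the 250 bases before each RefSeq transcription start found this element in 439 of 27025 genes (1.62%) and in 2 of the 29 genes of the list that had an entry, Egr2 and Zfp36. The element and 10 bases on each side are shown, 5′ to 3′ on the strand of the gene, with the element in capitals, since these are 2 of the 3 genes of the list with the largest ratios.
Egr2: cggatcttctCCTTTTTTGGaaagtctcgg
Zfp36: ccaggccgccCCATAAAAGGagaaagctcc
The Egr2 stretch is chr10:67537484-67537513 (plus strand, GRCm38.p6), with the first base of the element 72 bases before a RefSeq start and inside an intron of longer GENCODE transcripts. The Zfp36 stretch is chr7:28379267-28379296 (minus strand), with the element beginning 58 bases before the RefSeq start and inside a 5′ untranslated exon of a longer GENCODE transcript. The match is a description of the letters and not of binding.

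**Figure D5:**
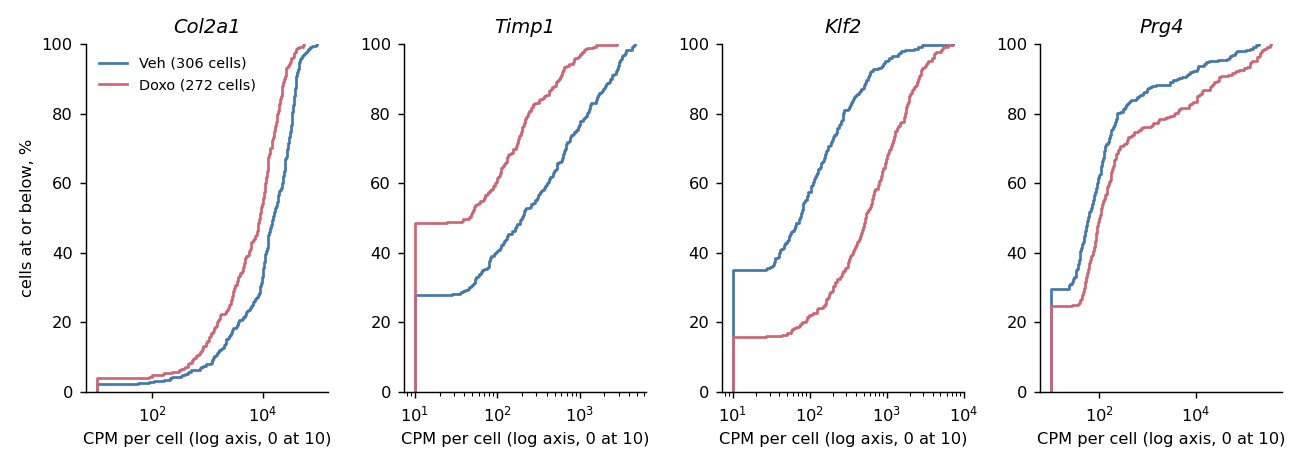
Cumulative share of chondrocyte-like cells (vertical axis, %) at or below a given CPM per cell (log axis, cells without a UMI drawn at 10) for Col2a1, Timp1, Klf2 and Prg4, in Veh (blue, 306 cells) and Doxo (red, 272 cells). The Doxo curve lies to the left for Col2a1 and Timp1 and to the right for Klf2, and for Prg4 45 Doxo and 24 Veh cells lie at 10000 CPM or above.

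Genes of the DNA damage response did not shift as a group. Of 28 p53 targets 15 were higher and 13 lower, with a median of 0.01. Trp53inp1 (1.30, 6.14 and 15.2 CPM) and Phlda3 (1.13, 8.84 and 19.4 CPM) were past 2-fold higher and Perp (-1.92) past 2-fold lower, all at low levels. Cdkn1a, p21, was at 583 CPM in Veh and 504 CPM in Doxo (-0.21), and Mdm2 at 62.6 and 60.7 CPM (-0.04). Of 14 CDK inhibitors and growth arrest genes none was past 2-fold, with a median of -0.12. Of 20 S phase genes 14 were lower, with a median of -0.18 and none past 2-fold. Of 25 G2 and M phase genes 15 were higher and 10 lower, and 3 were past 2-fold higher: Ckap2 (3.58), Cenpf (1.43) and G2e3 (1.06). In 1 Doxo cell lay 70 of the 117 UMIs of Ckap2. For Cenpf, 1 cell held 22 of 32 UMIs in Veh and 1 cell 27 of 59 in Doxo. The division markers Mki67 (-0.94, found in 22 Veh and 8 Doxo cells) and Top2a (-0.24, 27 and 9 cells) were lower. Of 16 interferon-stimulated genes 9 were lower, with a median of -0.13, and Cxcl10 (-3.41) and Tap1 (-1.12) were past 2-fold lower. Of 26 genes of hypoxia and glycolysis, Vegfa was past 2-fold lower and Ankrd37 (1.45) past 2-fold higher, with a median of 0.02. The 13 mitochondrial mRNAs had a median of 0.06.

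The genes with the lowest ratios mixed library-wide shifts, single cells and broader differences. The 4 haemoglobin genes, Bglap3 (-5.09) and Plet1 (-3.53) were also lower in all other cells, where Bglap3 was at -4.83 and Plet1 at -3.73. Nppb and Prlr came mostly from 1 Veh cell, with 52 of 52 and 50 of 60 UMIs, and no UMI was found in Doxo. Krt16, a keratin of stressed epithelium, was found in 46 Veh and 4 Doxo cells, with 683 and 26 UMIs (-4.13, -4.78 to -3.59), and at -0.67 in all other cells. Barx2, a homeobox gene, was found in 46 Veh and 7 Doxo cells (-2.96), and Olfm2, olfactomedin, in 36 and 5 cells (-2.92). Trdc (-4.06), R3hdml (-3.38), Car2 (-2.87) and Fam83g (-2.67) completed the set. In all other cells Prlr was at -2.55, Car2 at -1.61 and R3hdml at -1.56, so these were past 2-fold lower there too. Fam83g was at -0.56 and Trdc at -0.30 in all other cells, and Barx2 (0.70) and Olfm2 (1.32) were higher. Trdc is annotated as a T cell receptor constant gene, and its 160 Veh UMIs lay in 32 cells of a sample depleted of CD45+ cells.

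The genes with the highest ratios were also mixed. Coch (108 of 109 UMIs) and Fam25c (81 of 85) came from 1 Doxo cell each. Dbp, a circadian transcription factor, was found in 40 Veh and 131 Doxo cells, at 14.6 and 74.6 CPM (2.34, 1.99 to 2.73), and at 0.32 in all other cells, where its level was higher in both libraries (116 and 144 CPM). Irs1, the adaptor of the insulin and IGF1 receptors, was found in 79 and 127 cells, at 22.2 and 89.0 CPM (2.00, 1.70 to 2.31), and at 0.65 in all other cells. Bc1, a noncoding RNA, was at 3.57 here and 5.54 in all other cells. Rtn2 (2.33), 1700120C14Rik (2.29), Rtbdn (2.09), Sh2d3c (1.97), Gm42702 (1.94) and Fam221b (1.93) had 104 UMIs or fewer in either library. Of the genes that stood highest over other cells, the transcription factor Batf3 (-1.65) and the Wnt potentiator Rspo4 (-1.09) were past 2-fold lower and Serpina1c (1.03) past 2-fold higher.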

How the data were processed

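The deposited matrices, 1 per library, were analysed, with 21905 genes and 2488 cells each. The deposited unit is log2, 1 value per gene and cell, which the authors made from reads aligned to GRCm38 with Cell Ranger (version not given in the sources used here) and filtered by the authors before deposit. Scaling per cell to 1000000 and a log step had been applied 2 times. Inversion of both gave whole UMIs, while 20 gene symbols, among them Aldoa and Ddit3, gave values that were not whole. The libraries held 24860197 UMIs (Veh) and 20792499 UMIs (Doxo).

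UMIs were summed over the chondrocyte-like cells. Log2 ratios of Doxo to Veh had 0.5 UMI added to each sum and exact conditional binomial intervals, and shares had exact (Clopper-Pearson) intervals, all at 95%. Genes needed at least 50 UMIs over both libraries. A ratio of 2-fold is described, not tested. The calculations were tested on simulated data. Genes named were the 15 highest and 15 lowest ratios among genes at 0.5 times or more of their level in other cells, outside the 18 genes of the rule (the level was read in the library where the gene is higher, so this choice favours large ratios), the 20 genes highest over other cells, and the genes of 20 lists and of the markers. Cells, cutoffs, lists and tests were chosen with earlier results of these data known. Promoters and gene positions are from RefSeq (GRCm38.p6) and GENCODE M21. Python 3.11.15, numpy 2.4.6, scipy 1.17.1, pandas 2.3.3 and matplotlib 3.10.9 were used. Doublets were not called. The paper's test over cells was not used, since cells of 1 library are not replicates.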

Additional observations from a re-analysis of the deposited data

Results flagged for a closer look

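Genes past 2-fold in chondrocyte-like cells were searched among the 15 highest and 15 lowest named ratios and the list genes, not among all genes. For 7 of them the log2 ratio of Doxo to Veh pointed the other way in all other cells, by 0.5 or more. Both intervals also had to exclude 0. The difference between both sets of cells was not tested, since each condition is 1 library. Col10a1 was at -2.17 in chondrocyte-like cells and 0.84 in all other cells. Cxcl14 was at -1.11 and 0.55. Cxcl12 was at -1.38 and 0.70, but it is a gene of the rule that chose the cells, so its values are a description, and its ratio was 1.00 without mixed cells and 0.59 with a margin of at least 2. Barx2 was at -2.96 and 0.70, Olfm2 at -2.92 and 1.32, and Efemp1 at -1.18 and 0.68. Coch was at 8.34 and -0.62, where the first value comes from a Veh count of 0 and 1 Doxo cell with 108 of its 109 UMIs, and is no measure of a fold.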

How the results depend on the processing

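No paired analysis was possible because each group has 1 library, and the depth of these cells, lower in Doxo, limits every count of genes. For 86 named genes, 1139 values were taken under up to 15 alternatives. A reversal was counted only for a gene past 2-fold, and there were 7: Cxcl12 (1.00 without mixed cells, 0.59 with a margin of at least 2, 0.26 by mean deposited values), Fam25c (-0.36 by mean deposited values, -1.94 without the richest cell), Nppb (0.56 without the richest cell) and Grem1 (-0.0098 by mean deposited values). Sign changes of genes under 2-fold, such as that of Sox9 without the 5% of cells with most UMIs, were not counted. Leaving out Prg4-rich cells, the margin of 2 and leaving out the richest cell were chosen after the data were seen. The share of chondrocyte-like cells was 9.04% in Veh and 7.23% in Doxo with all 3 genes required, 10.3% and 9.41% without mixed cells, and 9.27% and 8.63% without the 5% of cells with most UMIs. Without Prg4-rich cells of any class it was 13.7% in Veh and 12.2% in Doxo. Genes past 2-fold were 96 higher and 134 lower in thinned cells, 446 and 505 with a minimum of 20 UMIs, and 62 and 118 with a minimum of 200. Of the secreted factors, those past 2-fold lower were 5 of 20 without mixed cells, 6 of 20 without the 5% of cells with most UMIs, 7 of 22 with the margin of 2, 6 of 17 in thinned cells and 7 of 17 with a minimum of 200 UMIs. Immediate early genes past 2-fold higher were 7 of 37 without the 5% of cells with most UMIs. Matrix degrading genes past 2-fold lower were 2 without mixed cells, 2 without the 5% of cells with most UMIs and 2 in thinned cells. Higher p53 targets were 5 of 13 in thinned cells and 5 of 10 with a minimum of 200 UMIs. By mean deposited values, 13 of 31 transcription factors and 14 of 39 growth plate genes were higher. The minimum of UMIs changes a count by changing which genes are tested. For the other alternatives the cause was not tested. All measured cartilage collagens were lower under every alternative but mean deposited values, where 11 of 12 were.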
